A study of Homo sapiens with 6 samples.

Results

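The 39 genes considered here are the enzymes and transporters of glycolysis, from glucose uptake to lactate, together with genes of the cellular response to low oxygen and 2 of its regulators, HIF1A and EPAS1. They were taken as a list of symbols, and a gene was used where the array annotation gave a probe set with that single symbol. A total of 37 of the 39 were found, among 11963 genes named on the array, and each gene was read from its brightest probe set, by the mean of all 6 arrays. SLC16A3 and CA9 were not analysed here.

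The cells were A549, an established line from a human lung adenocarcinoma. In the first group, 2 arrays held cells transfected with a pCMV5 plasmid that encodes human PIAS3, an inhibitor of STAT3. In the second, 2 arrays held cells transfected with an siRNA against STAT3, a transcription factor activated by growth factors and cytokines. In the third, the control, 2 arrays held cells stimulated with EGF and, per the labels' protocol, not transfected. By the series text all 3 groups received EGF after a serum-free period, whereas the array labels name EGF for the control only. Cells had been seeded for 12 h in medium with 10% serum, and RNA was taken 48 h after transfection. No arrays of cells given an empty plasmid or a non-targeting siRNA were analysed here, so transfection itself and the PIAS3 plasmid or the siRNA cannot be told apart in the comparisons with control. No group was labelled as kept in low oxygen.

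Glycolysis splits glucose into pyruvate, and LDHA turns pyruvate into lactate. When oxygen is low, prolyl hydroxylases stop marking the alpha subunits of the hypoxia-inducible factors, HIF1A and EPAS1, for destruction. The subunits then pair with ARNT and bind the core of the hypoxia response element in the promoters of glycolytic and other genes. HIF alpha subunits are set mainly at the protein level, which the arrays do not measure.

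The core of the hypoxia response element reads ACGTG or GCGTG. It was searched on both strands in the 250 bases before each annotated transcription start, in RefSeq sequence of GRCh38.p14. A window was held for 34 of the 37 measured members, 60 windows in all. Of these, 36 windows (60.0%) held a core, against 15172 of 35116 windows over all promoters (43.2%). The members' windows were also richer in G and C, with a median of 68.4% against 58.0%, so the share of cores and base composition were not separated. CACGTG, the E-box that contains ACGTG on both strands, was in 7 of the 60 windows (11.7%), against 6.3% over all. A match of letters is a description and shows no binding. The windows below are examples, and their core counts do not stand for the other members. DDIT4 and BHLHE40 are hypoxia-response genes with a higher mean in PIAS3 cells, P4HA1 and P4HA2 had a lower mean in both transfected groups, and LDHA is the terminal enzyme of the pathway. Each reads 5′ to 3′ on the gene's strand up to the base before the start, and capitals mark ACGTG or GCGTG on either strand.
DDIT4, chr10:72273674-72273923, plus strand: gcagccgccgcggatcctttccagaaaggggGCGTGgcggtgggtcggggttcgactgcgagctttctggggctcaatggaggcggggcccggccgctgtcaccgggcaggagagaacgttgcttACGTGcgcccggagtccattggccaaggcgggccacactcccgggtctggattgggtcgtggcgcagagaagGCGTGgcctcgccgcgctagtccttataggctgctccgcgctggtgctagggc
BHLHE40, chr3:4979187-4979436, plus strand: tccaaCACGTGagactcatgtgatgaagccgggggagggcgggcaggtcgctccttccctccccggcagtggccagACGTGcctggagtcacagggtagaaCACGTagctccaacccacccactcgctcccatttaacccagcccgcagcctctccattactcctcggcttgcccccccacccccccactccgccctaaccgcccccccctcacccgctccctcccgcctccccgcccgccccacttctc
LDHA, chr11:18394313-18394562, plus strand: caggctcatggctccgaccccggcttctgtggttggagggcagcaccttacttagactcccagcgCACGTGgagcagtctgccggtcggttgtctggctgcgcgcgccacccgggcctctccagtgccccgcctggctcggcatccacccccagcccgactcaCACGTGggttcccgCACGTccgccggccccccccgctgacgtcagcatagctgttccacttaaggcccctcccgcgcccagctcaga
P4HA1, chr10:73096867-73097116, minus strand: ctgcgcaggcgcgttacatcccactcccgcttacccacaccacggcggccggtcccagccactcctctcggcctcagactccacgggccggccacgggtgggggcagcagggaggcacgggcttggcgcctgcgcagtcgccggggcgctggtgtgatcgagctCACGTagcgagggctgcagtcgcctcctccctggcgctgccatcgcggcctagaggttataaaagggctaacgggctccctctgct
P4HA2, chr5:132227092-132227341, minus strand: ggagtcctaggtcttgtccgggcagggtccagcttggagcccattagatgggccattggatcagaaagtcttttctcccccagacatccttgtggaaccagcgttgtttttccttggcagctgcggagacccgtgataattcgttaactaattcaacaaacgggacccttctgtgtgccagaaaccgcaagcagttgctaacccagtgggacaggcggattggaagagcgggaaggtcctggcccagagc
The BHLHE40 window held 4 cores, of which an overlapping pair 245 and 244 bases before the start forms an E-box. The DDIT4 window held cores starting 219, 125 and 53 bases before the start. LDHA has 2 windows, of which the one with more cores is shown. It held 5, of which overlapping pairs 185 and 184, and 87 and 86, bases before the start form E-boxes, and the other, chr11:18396101-18396350, held 1 core and 0 E-boxes. The P4HA1 window held 1 core, 86 bases before the start, and the P4HA2 window held 0. Among windows not shown, that of PLOD2, also lower in both transfected groups, held cores 213, 200 and 146 bases before the start. The ADM and CA12 windows, of genes higher in PIAS3 cells, held 1 core each. MXI1, also higher there, held cores at 127 and 113 in 1 window, at 131 in another and 0 in its remaining window. PFKFB3, also higher there, held a core at 168 in 1 window and an overlapping pair at 108 and 107 in the other.

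All values are log2 values per probe set after RMA, so a difference of 1 is a doubling, and levels of different probe sets are not set against each other. Of the 8 A549 epithelial markers, KRT8, KRT18, ALDH1A1, AKR1B10 and AKR1C1 read 12.39 to 14.06 over the 6 arrays, CDH1 8.19 to 9.54, KRT19 9.02 to 11.16 and EPCAM 6.04 to 7.24. The array medians were 6.63 to 6.72. Of the 8, 4 had a positive and 4 a negative difference between PIAS3 and control cells. CDH1 read 9.54 and 9.14 in PIAS3 cells and 8.37 and 8.60 in siRNA cells, against 8.31 and 8.19 in control cells. KRT19 read 9.02 and 9.34 in PIAS3 cells and 10.76 and 9.42 in siRNA cells, against 11.16 and 11.02 in control cells. The 5 measured leukocyte markers read 3.39 to 7.09, the 4 endothelial ones 3.76 to 6.57 and the 6 fibroblast ones 2.98 to 8.88, and the deposited values carry no detection calls. The leukocyte marker CD14 read 6.84 and 6.54 in PIAS3 cells and 5.90 and 5.99 in siRNA cells, against 5.87 and 5.83 in control cells, a difference of 0.84 ± 0.13 for the plasmid (limma adjusted p = 0.0793). The medians of the leukocyte, endothelial and fibroblast lists lay between -0.07 and 0.07 of the control mean in every transfected array. The 3′ minus 5′ actin signal, a sign of RNA integrity, was 0.43 and 0.28 in PIAS3 cells and 0.16 and 0.23 in siRNA cells, against 0.12 and 0.10 in control cells. The same signal of GAPDH was 0.40 and 0.37 in PIAS3 cells and 0.29 and 0.40 in siRNA cells. In control cells it was 0.36 and 0.29. Replicate 1 of the PIAS3 group stood apart. Its 9 measured interferon-response genes lay a median of 4.63 above the control mean, against -0.02 in PIAS3 replicate 2 and 0.01 and 0.06 in the siRNA arrays, and MX1 read 10.61 there against 4.86 in PIAS3 replicate 2. Its poly-A spike-in probe sets lay 1.41 above the control mean, against -0.13, -0.36 and -0.23 in PIAS3 replicate 2 and the siRNA arrays. Over the 37 members, siRNA replicate 2 was nearer to PIAS3 replicate 2 (SD of the differences 0.18) than to siRNA replicate 1 (0.33), and siRNA replicate 1 was nearest to control replicate 2 (0.22). The part of these array differences in the results below was not tested. STAT3 itself read 10.18 and 9.70 in PIAS3 cells and 10.23 and 9.94 in siRNA cells, against 10.50 and 10.43 in control cells. The STAT3 differences were -0.53 ± 0.18 (SE) for the plasmid and -0.38 ± 0.18 for the siRNA, with limma adjusted p of 0.254 and 0.9998. A second STAT3 probe set gave -0.60 ± 0.15 and -0.33 ± 0.15, with limma adjusted p of 0.145 and 0.9998. Every transfected array lay below both controls on both probe sets. PIAS3 read 7.78 and 7.72 in PIAS3 cells and 7.50 and 7.64 in siRNA cells, against 7.70 and 7.71 in control cells (0.04 ± 0.11 and -0.13 ± 0.11). The sources used here do not say whether the PIAS3 probes match the transcript of the plasmid.

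None of the 37 members passed the test in any of the 3 comparisons. With limma and Benjamini-Hochberg adjustment over 22215 probe sets, 0 members had an adjusted p under 0.05 between PIAS3 and control cells. Over all genes, 0.0334% were called higher and 0.0920% lower. The smallest adjusted p of a member was 0.0914, for MXI1. Without PIAS3 replicate 2, a fit in which PIAS3 replicate 1 alone stood for its group, limma called 4 members (MXI1 and BHLHE40 higher, P4HA2 and PGAM1 lower) and 1232 probe sets in all, and without PIAS3 replicate 1 it called 0 members. At an unadjusted p under 0.05, 7 members were higher in PIAS3 cells and 4 lower, 18.9% and 10.8% of the 37, against 7.13% and 7.44% of all genes. Both PIAS3 arrays lay above both control arrays for 12 members and below them for 10, against 22.4% and 23.7% of all genes. The median difference over the members was 0.02 (all genes -0.00), with 19 positive and 18 negative. These counts carry no test of their own, since members are not replicates. In bulk cells, fewer cells with a transcript and less of it per cell cannot be told apart. With 2 arrays a group, an exact permutation test cannot go below a p of 0.333, so none was used.

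Between siRNA and control cells, 0 members again had an adjusted p under 0.05, where limma called 0% of all genes higher and 0.00836% lower, and the members' smallest adjusted p was 0.761. At an unadjusted p under 0.05, 1 member was higher and 3 were lower, against 2.32% and 3.06% of all genes. Both siRNA arrays lay above both control arrays for 6 members and below for 6, against 19.4% and 19.5% of all genes. Between PIAS3 and siRNA cells, 0 members had an adjusted p under 0.05, where limma called 0% of all genes in either direction, and the smallest adjusted p was 0.607. Without PIAS3 replicate 2, BHLHE40 alone was called, among 544 probe sets. At an unadjusted p under 0.05, 4 members were higher in PIAS3 cells and 1 was lower, against 4.19% and 3.83% of all genes. Both PIAS3 arrays lay above both siRNA arrays for 7 members and below for 7, against 17.0% and 17.5%. The comparisons with control share the control arrays, so their values are given side by side and are not independent.

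In PIAS3 cells the hypoxia-response members had a median above control and the glycolysis members a median below it. Of the 14 measured hypoxia-response members, 11 had a positive difference and 3 a negative one, with a median of 0.36, against 8 positive and 15 negative of the 23 glycolysis members, with a median of -0.08. At an unadjusted p under 0.05, 6 hypoxia-response members were higher and 3 lower, against 1 and 1 of the glycolysis members. These were 42.9% and 21.4% of the hypoxia-response members and 4.3% and 4.3% of the glycolysis members, where 7.13% of all genes were higher and 7.44% lower. In siRNA cells, the medians were 0.06 for the hypoxia-response members and 0.02 for the glycolysis members. By array, the hypoxia-response median was 0.34 and 0.30 in PIAS3 cells and -0.19 and 0.12 in siRNA cells. The glycolysis median was -0.17 and 0.03 in PIAS3 cells and 0.02 and 0.02 in siRNA cells. The 18 measured genes of a second list, other hypoxia-induced genes, had a median of 0.04 in PIAS3 cells, with 11 positive and 7 negative differences. Of these 18, 3 were higher and 2 lower at an unadjusted p under 0.05 in limma (16.7% and 11.1%). The median of that list in siRNA cells was 0.04. The differences between these medians were not tested.

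**Figure D1:**
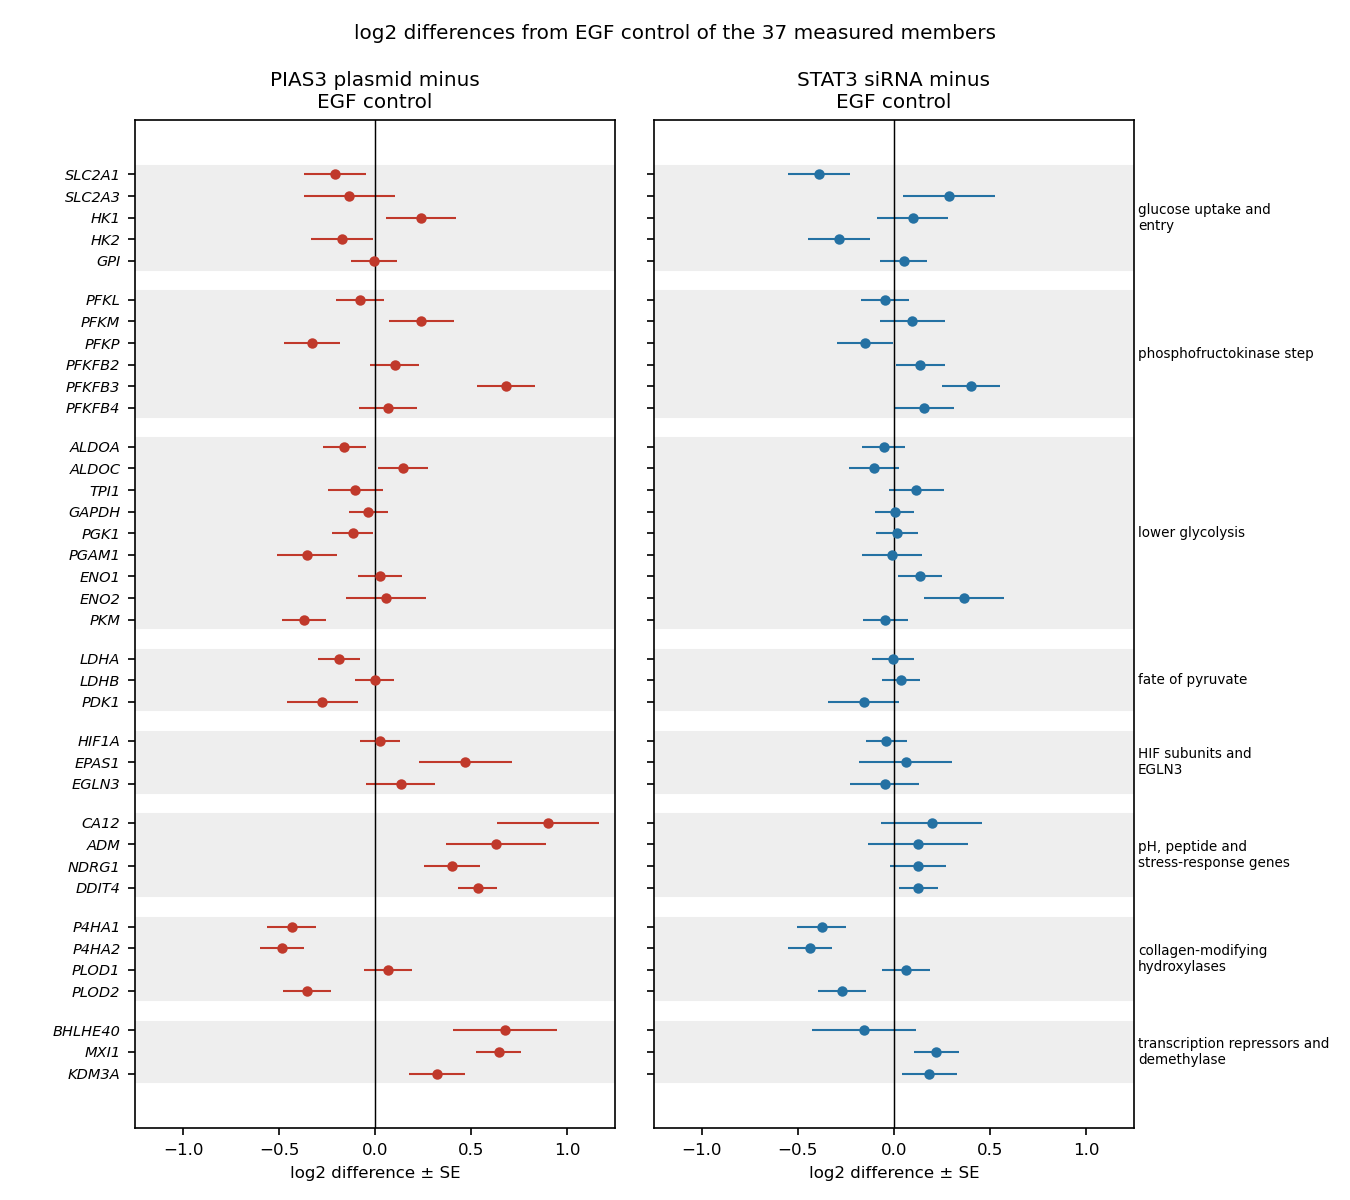
Log2 difference from control for each of the 37 members, PIAS3 plasmid and STAT3 siRNA, with the standard error of the limma fit, in order of role. CA12 has the highest difference in PIAS3 cells, 0.90, and P4HA2 the lowest, -0.49.

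**Figure D2:**
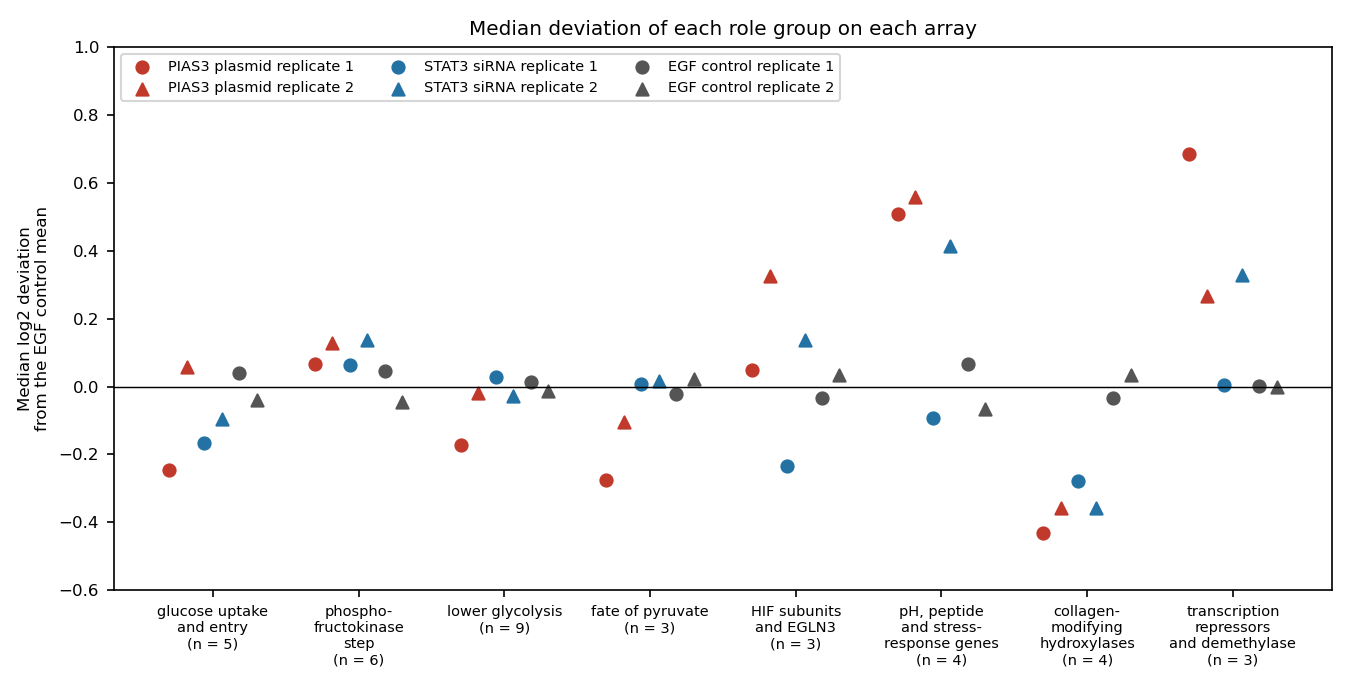
Median log2 shift of each role group from the control mean, one point per array, for the PIAS3 plasmid, STAT3 siRNA and EGF control arrays. The pH, peptide and stress group has medians of 0.51 and 0.56 for the PIAS3 plasmid, and the collagen-modifying hydroxylases have -0.43 and -0.36 for the PIAS3 plasmid and -0.28 and -0.36 for the STAT3 siRNA.

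Glucose uptake and entry depend on the transporters SLC2A1 and SLC2A3, the hexokinases HK1 and HK2 and the isomerase GPI, 5 members with a median difference of -0.13 in PIAS3 cells and 0.05 in siRNA cells. By array the median was -0.25 and 0.06 in PIAS3 cells and -0.17 and -0.10 in siRNA cells. SLC2A1, the main transporter of many cancer cells, read 8.86 and 9.33 in PIAS3 cells and 8.89 and 8.94 in siRNA cells, against 9.37 and 9.24 in control cells. Both siRNA arrays and PIAS3 replicate 1 lay below both controls, and PIAS3 replicate 2 did not. Its difference was -0.39 ± 0.16 in siRNA cells (unadjusted p = 0.0465, limma adjusted p = 0.9998) and -0.21 ± 0.16 in PIAS3 cells. HK2, the inducible hexokinase, read 5.09 and 5.55 in PIAS3 cells and 5.27 and 5.14 in siRNA cells, against 5.53 and 5.45 in control cells. Its differences were -0.17 ± 0.16 and -0.29 ± 0.16. A second HK2 probe set, also dim, gave -0.09 ± 0.12 and -0.02 ± 0.12, with the siRNA and control arrays overlapping. RMA compresses small differences of dim probe sets such as these. SLC2A3, a transporter whose probe set can also match the near-identical SLC2A14, read 8.33 and 8.55 in PIAS3 cells and 9.25 and 8.48 in siRNA cells, against 8.47 and 8.68 in control cells. The high reading of siRNA replicate 1 was present in all 3 of its probe sets, at 9.25, 9.31 and 8.37, each above the other 5 arrays. HK1 lay 0.24 above control in PIAS3 cells.

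The phosphofructokinase step is the committed step of glycolysis, and the PFKFB enzymes set the level of its activator, fructose 2,6-bisphosphate. PFKFB3 read 10.87 and 11.00 in PIAS3 cells and 10.45 and 10.87 in siRNA cells, against 10.25 and 10.27 in control cells. All 4 transfected arrays lay above both controls. The PFKFB3 difference was 0.68 ± 0.15 in PIAS3 cells (limma adjusted p = 0.126) and 0.40 ± 0.15 in siRNA cells (unadjusted p = 0.0327, adjusted p = 0.9998), and PFKFB3 was the only glycolysis member with an unadjusted p under 0.05 and a positive difference in either comparison with control. PFKP, the platelet-type phosphofructokinase, read 12.03 and 12.32 in PIAS3 cells and 12.22 and 12.49 in siRNA cells, against 12.54 and 12.46 in control cells. Its difference of -0.33 ± 0.15 in PIAS3 cells had an adjusted p of 0.377 in limma. PFKM, the muscle-type enzyme, stood 0.24 above control in PIAS3 cells. In PIAS3 cells PFKL, PFKFB2 and PFKFB4 had differences of -0.08, 0.10 and 0.07.

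The lower part of glycolysis, from aldolase to pyruvate kinase, had a median difference of -0.10 in PIAS3 cells and 0.00 in siRNA cells over 9 members. By array the median was -0.17 and -0.02 in PIAS3 cells, so it lay mostly in PIAS3 replicate 1, and 0.03 and -0.03 in siRNA cells. Both PIAS3 arrays lay below both controls for 5 of the 9 members and above for 1, against 23.7% and 22.4% of all genes. The 5 include GAPDH, with a difference of -0.04. PKM, pyruvate kinase, read 12.78 and 13.01 in PIAS3 cells and 13.21 and 13.24 in siRNA cells, against 13.28 and 13.26 in control cells. The PIAS3 arrays were the lowest of the 6. The PKM difference was -0.37 ± 0.12 in PIAS3 cells (limma adjusted p = 0.228), -0.05 in siRNA cells and -0.33 ± 0.12 between them (unadjusted p = 0.0256). Its second, dimmer probe set had the opposite sign, 0.27 ± 0.22 in PIAS3 cells. PGAM1, phosphoglycerate mutase, was chosen after its values were seen. It read 12.03 and 12.48 in PIAS3 cells and 12.63 and 12.57 in siRNA cells, against 12.59 and 12.63 in control cells, with the lowest value in PIAS3 replicate 1. GAPDH, widely used as a loading reference, read 14.09 and 14.12 in PIAS3 cells and 14.12 and 14.17 in siRNA cells, against 14.16 and 14.13 in control cells. The highest values on the arrays were 14.28 to 14.36, so GAPDH lay near the top of the scale, and its differences were -0.04 ± 0.10 and 0.00 ± 0.10. ALDOA, TPI1 and PGK1 lay 0.16, 0.10 and 0.12 below control in PIAS3 cells, and ENO1 0.03 and ALDOC 0.14 above it, none with an unadjusted p under 0.05. ENO2, the neuronal-type enolase, stood 0.06 above control in PIAS3 cells and 0.37 ± 0.21 above it in siRNA cells.

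Pyruvate is turned into lactate by LDHA, and PDK1 limits its oxidation in the mitochondrion by inhibiting pyruvate dehydrogenase. LDHA read 13.14 and 13.31 in PIAS3 cells and 13.42 and 13.40 in siRNA cells, against 13.40 and 13.44 in control cells. Its difference of -0.19 ± 0.11 in PIAS3 cells had an adjusted p of 0.508 in limma, and its difference in siRNA cells was -0.01. LDHB, which favours the reverse reaction, lay between 13.28 and 13.36 on all 6 arrays. PDK1 read 5.0 and 5.30 in PIAS3 cells and 5.09 and 5.44 in siRNA cells, against 5.61 and 5.24 in control cells, and the groups overlapped. Its differences were -0.28 ± 0.18 and -0.16 ± 0.18.

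Of the HIF subunits, HIF1A read 12.45 and 12.40 in PIAS3 cells and 12.32 and 12.41 in siRNA cells, against 12.37 and 12.44 in control cells. The HIF1A differences were 0.02 ± 0.10 in PIAS3 cells and -0.04 ± 0.10 in siRNA cells. EPAS1, the second alpha subunit, read 10.82 and 10.82 in PIAS3 cells and 9.99 and 10.83 in siRNA cells, against 10.37 and 10.33 in control cells. Its siRNA arrays lay on opposite sides of the control arrays. The EPAS1 difference was 0.47 ± 0.24 in PIAS3 cells (limma adjusted p = 0.449), and its second probe set gave 0.08. EGLN3, a prolyl hydroxylase that marks HIF alpha subunits and is itself induced by HIF, read 6.16 and 6.54 in PIAS3 cells and 5.99 and 6.36 in siRNA cells, against 6.12 and 6.32 in control cells.

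The genes for pH, peptide and stress responses lay above control in both PIAS3 arrays for 4 of 4 measured members, against 22.4% of all genes, with a median difference of 0.58 in PIAS3 cells and 0.13 in siRNA cells. By array the median was 0.51 and 0.56 in PIAS3 cells, and -0.09 and 0.41 in siRNA cells, on opposite sides of control. Counts by role group are descriptions, as the members were chosen with earlier results of these data known. CA12, a membrane carbonic anhydrase that helps set extracellular pH, read 12.99 and 12.37 in PIAS3 cells and 11.64 and 12.31 in siRNA cells, against 11.89 and 11.67 in control cells. The difference of 0.90 ± 0.26 was 1.87-fold (limma adjusted p = 0.204). Without PIAS3 replicate 1 it was 0.59, and without PIAS3 replicate 2 it was 1.21. All 6 of its probe sets gave a positive difference, from 0.52 to 0.90, with both PIAS3 arrays above both controls. DDIT4, a stress-induced inhibitor of mTORC1, read 10.47 and 10.45 in PIAS3 cells and 10.07 and 10.04 in siRNA cells, against 9.89 and 9.97 in control cells. The DDIT4 arrays agreed within each group, and the PIAS3 arrays were the highest, by 0.53 ± 0.10 over control (adjusted p = 0.0973) and 0.41 ± 0.10 over siRNA (unadjusted p = 0.0049) in limma. ADM, the vasodilator peptide adrenomedullin, read 11.12 and 11.42 in PIAS3 cells and 10.33 and 11.20 in siRNA cells, against 10.70 and 10.58 in control cells. NDRG1, a differentiation- and stress-responsive gene, read 9.18 and 9.35 in PIAS3 cells and 8.82 and 9.16 in siRNA cells, against 8.93 and 8.79 in control cells. ADM and NDRG1 stood 0.63 ± 0.26 and 0.40 ± 0.15 above control in PIAS3 cells, with limma adjusted p of 0.350 and 0.288. In both genes, siRNA replicate 2 lay above both controls and siRNA replicate 1 did not.

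The transcription repressors and the demethylase lay above control in both PIAS3 arrays for 3 of 3 members, against 22.4% of all genes, with a median difference of 0.64 in PIAS3 cells and 0.19 in siRNA cells. By array the median was 0.68 and 0.27 in PIAS3 cells and 0.00 and 0.33 in siRNA cells. MXI1, which antagonises MYC, read 8.85 and 8.77 in PIAS3 cells and 8.28 and 8.50 in siRNA cells, against 8.17 and 8.16 in control cells. Its difference of 0.64 ± 0.12 in PIAS3 cells was 1.56-fold, the smallest p of any member (limma adjusted p = 0.0914). BHLHE40, a circadian and hypoxia-induced repressor, read 11.43 and 10.59 in PIAS3 cells and 9.94 and 10.41 in siRNA cells, against 10.32 and 10.35 in control cells. The first PIAS3 array was the highest of the 6 by a wide margin. The BHLHE40 difference was 0.68 ± 0.27 in PIAS3 cells (limma adjusted p = 0.332), -0.16 ± 0.27 in siRNA cells and 0.83 ± 0.27 between them. Without PIAS3 replicate 1, the difference from control was 0.26, and without PIAS3 replicate 2 it was 1.10. Its second probe set gave 0.31 ± 0.19 in PIAS3 cells, with PIAS3 replicate 2 inside the range of the controls. KDM3A, a histone H3 lysine 9 demethylase, stood 0.32 ± 0.14 above control in PIAS3 cells and 0.19 in siRNA cells.

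**Figure D3:**
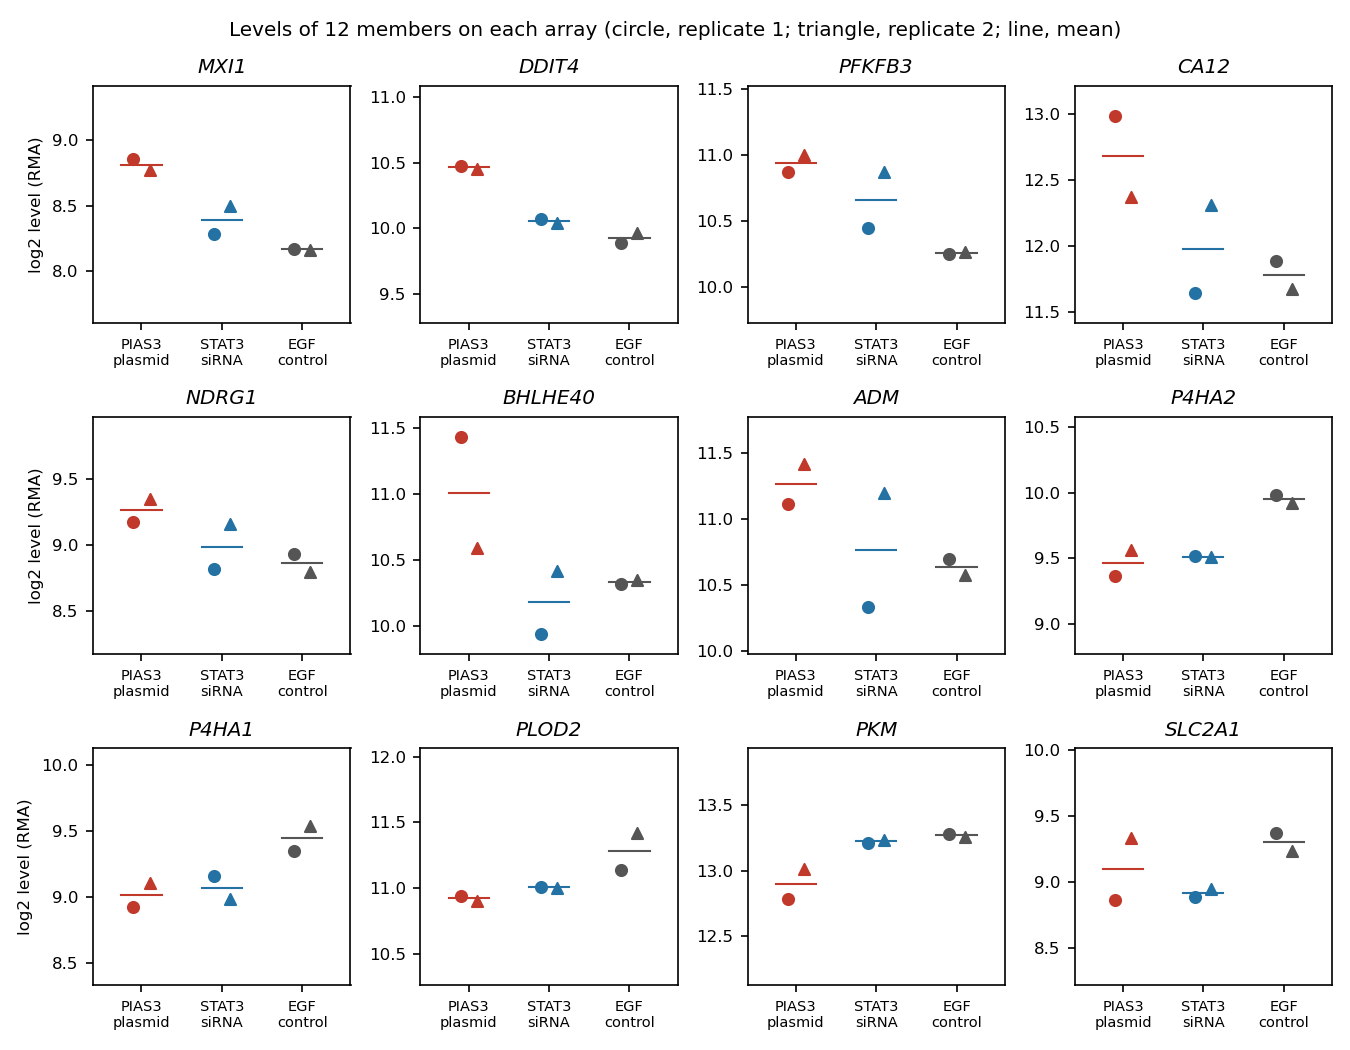
Log2 level of 12 members on each of the 6 arrays, with PIAS3 plasmid, STAT3 siRNA and EGF control arrays from left to right and lines at the group means (circle, replicate 1; triangle, replicate 2). The 2 DDIT4 values lie close together in every group, whereas BHLHE40 lies at 11.43 and 10.59 in the PIAS3 arrays.

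Of the collagen-modifying hydroxylases, 3 of 4 lay below both controls in both PIAS3 arrays and in both siRNA arrays, against 23.7% of all genes for the plasmid and 19.5% for the siRNA, with the control arrays shared. P4HA1 and P4HA2 are the catalytic subunits of collagen prolyl 4-hydroxylase, PLOD1 and PLOD2 are collagen lysyl hydroxylases, and the median difference over the 4 was -0.40 in PIAS3 cells and -0.32 in siRNA cells. P4HA2 read 9.37 and 9.56 in PIAS3 cells and 9.52 and 9.51 in siRNA cells, against 9.98 and 9.92 in control cells. Both transfected groups lay below both controls and overlapped with each other. The P4HA2 difference was -0.49 ± 0.11 in PIAS3 cells (adjusted p = 0.133) and -0.44 ± 0.11 in siRNA cells (adjusted p = 0.761) in limma. P4HA1 read 8.92 and 9.10 in PIAS3 cells and 9.16 and 8.98 in siRNA cells, against 9.35 and 9.54 in control cells. Its differences were -0.43 ± 0.13 and -0.38 ± 0.13, with limma adjusted p of 0.208 and 0.959. PLOD2 read 10.94 and 10.91 in PIAS3 cells and 11.01 and 11.00 in siRNA cells, against 11.14 and 11.42 in control cells. Its second probe set, at 9.65 and 9.95 in PIAS3 cells and 9.95 and 10.02 in siRNA cells, against 10.33 and 10.54 in control cells, also lay below in every transfected array. PLOD1 had differences of 0.07 and 0.06. Between PIAS3 and siRNA cells, P4HA1, P4HA2 and PLOD2 differed by -0.06, -0.05 and -0.08.

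**Figure D4:**
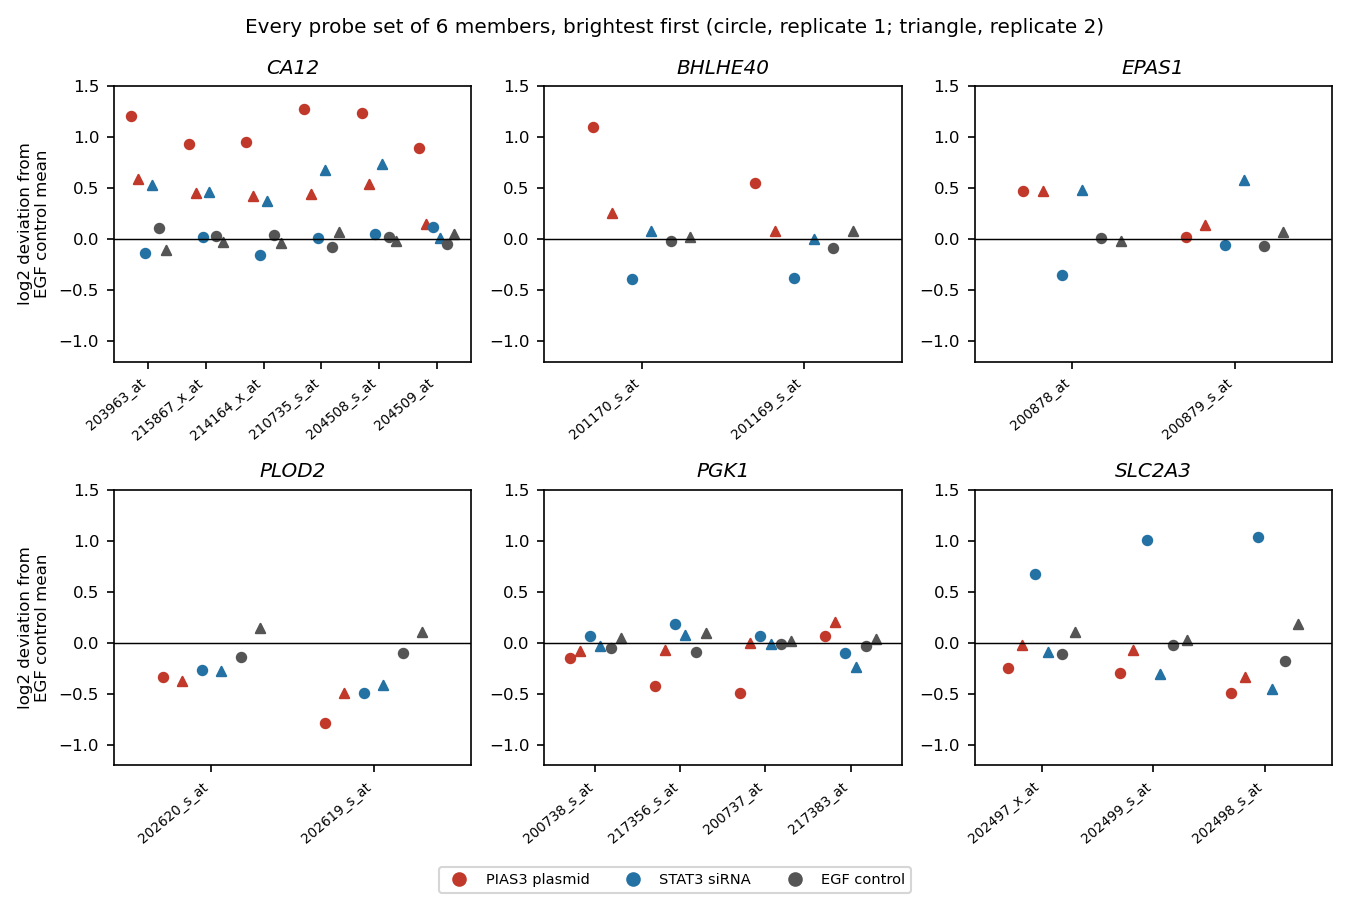
Log2 deviation from the EGF control mean on each array for every probe set of 6 members with several probe sets (circle, replicate 1; triangle, replicate 2). Both PIAS3 arrays lie above 0 on all 6 CA12 probe sets, and siRNA replicate 1 is the highest array on all 3 SLC2A3 probe sets.

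Several probe sets were read for 16 of the 37 members, and they gave different signs for 4 of the 16 between PIAS3 and control cells (ENO1, LDHB, PGK1 and PKM). Of the 7 members with a higher mean in PIAS3 cells and an unadjusted p under 0.05, 6 had a promoter window and 6 of those held a core. Of the 4 with a lower mean, 4 had a window and 2 held a core. Counted by gene, 28 of the 34 members with a window held a core (82.4%), against 47.4% of all genes with a window. A gene counted if any of its windows held a core. The members had 60 windows for 34 genes, against 35116 for 27305 over all, so they had more windows per gene in which to find a core. Some windows of the same member also overlap. The window numbers are too few for a comparison.

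The other genes around the pathway were read from 7 lists with 101 listed genes, of which 88 were measured, and 0 of the 88 had a limma adjusted p under 0.05 in any comparison. At an unadjusted p under 0.05, 11 were higher and 5 lower in PIAS3 cells, and 4 higher and 4 lower in siRNA cells. These were 12.5% and 5.7% for the plasmid, against 7.13% and 7.44% of all genes, and 4.5% and 4.5% for the siRNA, against 2.32% and 3.06%. The median over the 88 was 0.02 in PIAS3 cells and 0.04 in siRNA cells, where all genes had -0.00 in both. Among other hypoxia-induced genes (18 of 21 measured), STC2, a secreted glycoprotein, read 7.94 and 7.93 in PIAS3 cells and 7.96 and 8.17 in siRNA cells, against 8.72 and 8.60 in control cells. LOXL2, which cross-links collagen, read 10.75 and 11.13 in PIAS3 cells and 11.36 and 11.26 in siRNA cells, against 11.77 and 11.72 in control cells. The differences of STC2 and LOXL2 were -0.72 ± 0.12 and -0.80 ± 0.14 in PIAS3 cells (limma adjusted p = 0.0793 and 0.0908) and -0.59 ± 0.12 and -0.44 ± 0.14 in siRNA cells. JMJD6, a lysyl hydroxylase, stood 0.46 ± 0.12 above control in PIAS3 cells.

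Among the 15 of 16 measured HIF regulators, LIMD1, a scaffold for HIF1A degradation, stood 0.50 ± 0.16 above control in PIAS3 cells and 0.45 ± 0.16 in siRNA cells. CITED2, which competes with HIF for its coactivator, and HIF3A lay at -0.48 ± 0.19 and -0.44 ± 0.19 in PIAS3 cells. In the pentose phosphate pathway (8 of 9 measured), PGD, 6-phosphogluconate dehydrogenase, read 13.06 and 12.94 in PIAS3 cells and 12.24 and 12.89 in siRNA cells, against 12.16 and 12.22 in control cells. Its difference of 0.80 ± 0.20 had an adjusted p of 0.151 in limma, and TKT, transketolase, stood 0.41 ± 0.12 above control. Among genes of pyruvate oxidation (18 of 20 measured), PDK4, another inhibitor of pyruvate dehydrogenase, read 7.08 and 6.52 in PIAS3 cells and 6.44 and 6.64 in siRNA cells, against 5.64 and 6.11 in control cells. PDK4 differed by 0.92 ± 0.22 in PIAS3 cells and 0.66 ± 0.22 in siRNA cells, where PDK1 had negative differences. PCK2, the mitochondrial PEP carboxykinase of the gluconeogenesis list (13 of 14 measured), stood 0.47 ± 0.14 and 0.39 ± 0.14 above control. Of the other transporters (7 of 10 measured), SLC16A7, a monocarboxylate transporter, lay at -0.49 ± 0.14 and -0.38 ± 0.14. The other isoenzymes of glycolysis (9 of 11 measured) had 0 members higher or lower at an unadjusted p under 0.05 in PIAS3 cells, and GAPDHS at -0.35 ± 0.13 in siRNA cells.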

How the data were processed

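Expression was measured on 6 Affymetrix arrays, 2 for each of 3 groups. The deposited values are on the log2 scale, 1 for each probe set. RMA, which subtracts background, normalizes between arrays and combines a probe set's probes, was used by the authors per the submitters' processing notes, with no version. The array medians were 6.63 to 6.72. The file held 22277 probe sets. Of these, 62 control probe sets were left out and 22215 tested; 19064 had 1 gene symbol, 1043 several and 2108 none.

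All 6 arrays entered one limma 3.58.1 fit in R 4.3.3 (lmFit, then eBayes; two-sided; 3 residual degrees of freedom, Benjamini-Hochberg over all tested probe sets, threshold 0.05). Errors are the fit's standard errors. The labels do not say whether replicates came from separate cultures, and the p-values cover no more than the spread between these samples, which may be technical. The number of arrays limits the precision. The fit was tested on simulated data. The simulated arrays had independent noise for each probe set and none stood apart, so that test does not cover PIAS3 replicate 1.

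The members and lists were chosen with earlier results of these data known, so counts over them and over the role groups are no independent support. Values on every array are given for SLC2A1, HK2, PFKFB3, LDHA, PDK1, GAPDH, HIF1A and EPAS1, and per comparison for up to 8 members in each direction with an unadjusted p under 0.05 and arrays that do not overlap. Up to 3 genes with the smallest p in each comparison with control were named per other list. PFKP, PGAM1, SLC2A3, EGLN3 and KDM3A were described after their values were seen. A replicate block was tried as an alternative, because the labels number the replicates 1 and 2 but do not pair them; the correlations of same-numbered arrays' deviations were -0.05, 0.09 and -0.06. Also tried were control probe sets included, array weights, each comparison's 2 groups alone, repeated quantile normalization, cyclic loess, median centring of arrays, leaving out probe sets dimmer than the 40th percentile, averaging the probe sets of each gene, eBayes with a trend and robust, an adjusted p of 0.10, and leaving out each array; a group's lone array was then taken to vary as the other groups did. With 2 arrays a group, the array weights were equal within each group, at 0.60 for PIAS3, 0.86 for siRNA and 1.95 for control arrays. They therefore could not set PIAS3 replicate 1 apart from PIAS3 replicate 2. Promoter windows came from RefSeq, GRCh38.p14, and were searched in Python 3.11.15.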

Additional observations from a re-analysis of the deposited data

How the results depend on the processing

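A total of 17 alternatives was run, 6 of them leaving out 1 array. No member passed the threshold in any comparison under the others except at an adjusted p under 0.10, where 2 were called between PIAS3 and control cells (MXI1 and DDIT4). Without PIAS3 replicate 2, limma called 4 (MXI1 at 0.68 and BHLHE40 at 1.10 higher, P4HA2 and PGAM1 at -0.58 lower) and, between PIAS3 and siRNA cells, 1 (BHLHE40). That fit rests on PIAS3 replicate 1, whose interferon genes stand apart. Leaving out each array in turn gave 0 to 4 members called between PIAS3 and control cells, 0 to 1 between PIAS3 and siRNA cells and 0 to 0 between siRNA and control cells. With a replicate block, 0 members were called in each comparison, and the block changed no other member's call. Over all probe sets the calls between PIAS3 and control cells were 22, against 2 with the block, repeated quantile normalization, the filter at the 40th percentile or control probe sets included, 39 with cyclic loess, 58 with a trend and robust eBayes, 143 with array weights, 262 with the 2 groups alone, 1232 without PIAS3 replicate 2 and 0 without either control array. Between siRNA and control cells they were 1, against 3 with the 2 groups alone, 8 with array weights and 0 with repeated quantile normalization or cyclic loess. Leaving out each array, the median over members ranged from -0.056 to 0.056 between PIAS3 and control cells and from -0.064 to 0.048 between PIAS3 and siRNA cells. Under the other alternatives these medians ranged from 0.01 to 0.071 and from -0.048 to 0.046, the highest of each with cyclic loess. GAPDH changed sign at -0.012 between siRNA and control cells with repeated quantile normalization, and with cyclic loess at -0.014, 0.032 (PIAS3 and control) and 0.046 (PIAS3 and siRNA). Cyclic loess also gave P4HA2, P4HA1 and PLOD2 0.037, 0.015 and 0.006 between PIAS3 and siRNA cells, and the mean of probe sets gave PKM 0.13 between siRNA and control cells. Leaving out arrays turned the sign of SLC2A1 (-0.44 to 0.026), HK2 (-0.40 to 0.056) and HIF1A (-0.011 to 0.058) between PIAS3 and control cells. Between siRNA and control cells it turned that of PDK1 (-0.34 to 0.028), HIF1A (-0.084 to 0.0069), BHLHE40 (-0.39 to 0.082), LDHA (-0.027 to 0.017), GAPDH (-0.017 to 0.026), EPAS1 (-0.36 to 0.48), CA12 (-0.14 to 0.53), NDRG1 (-0.048 to 0.30) and ADM (-0.31 to 0.56). Between PIAS3 and siRNA cells it turned that of PDK1 (-0.29 to 0.056), P4HA2 (-0.15 to 0.048), P4HA1 (-0.15 to 0.033), SLC2A1 (-0.053 to 0.42), HK2 (-0.11 to 0.34) and EPAS1 (-0.0083 to 0.83). The cause was not tested. Dim members such as HK2 and PDK1 fell below the filter and have no value there.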
